A study of Mus musculus with 6 samples.

Results

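The 52 genes described here encode ligands, receptors, Smads, extracellular binders and intracellular regulators of the transforming growth factor beta (TGF beta) and bone morphogenetic protein (BMP) pathways. They were chosen by name, with no measured value in the rule, but with earlier results of these data known. All 52 were found among the 31017 genes of a count table from 4T1 cells. 4T1 is a mouse mammary carcinoma line that forms invasive and metastatic tumours in mice. Messenger RNA was sequenced in 3 libraries labelled FGFR2 KO, from cells nucleofected with Cas9 and guide RNAs named for FGFR2, and in 3 control libraries, from cells nucleofected with Cas9 and control guide RNAs. FGFR2 is a cell surface receptor that signals when bound by fibroblast growth factors. Both groups were embedded in collagen I (1.2 or 2.4 mg per ml, with 100000 cells per ml), gelled for 30 min as 80 µl droplets, covered with medium holding 10% serum, and released with collagenase at 300 U/ml for 10 min and a further 5 min. The labels leave unsaid which collagen concentration each library had, how long the gels were kept, or whether the KO cells were a single clone or a pool. The comparison shows how these genes differed between cells given FGFR2 guides and cells given control guides in a collagen matrix.

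TGF beta ligands are secreted in a latent form, held in the matrix by latent TGF beta binding proteins (LTBPs), and must be released before they bind the type II receptor TGFBR2, which then phosphorylates the type I receptor TGFBR1 and, through it, the transcription factors SMAD2 and SMAD3. Activins use other receptors to reach the same Smads, while BMPs act through ACVR1, BMPR1A or BMPR1B and SMAD1, SMAD5 and SMAD9, and both branches share SMAD4. In mammary epithelium TGF beta restrains proliferation, and in mammary carcinoma cells it is known for promoting invasion and metastasis.

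Libraries held 18635037 to 20171309 counts in the FGFR2 KO group and 15531790 to 20447719 counts in the control group. Fgfr2 transcripts had 101, 81.2 and 95.2 CPM (counts scaled to a common library size) in the KO libraries, against 96.9, 95.9 and 106 CPM in the control libraries, and the groups overlapped (log2 fold change -0.11, edgeR quasi-likelihood adjusted p = 0.113). The Fgfr2 value depended on single libraries: the log2 fold change was -0.17 without KO replicate 1, where it passed as lower (edgeR adjusted p = 0.0081), and -0.02 without KO replicate 2. These counts cover the whole gene and do not show what the guides did to the protein. Of 10 epithelial and mammary carcinoma markers, 9 were detected, with a summed level of 5254 to 5368 CPM in KO libraries and 5294 to 5413 CPM in control libraries, while Krt5 was at 0. The near-equal sums hide changes in single markers. All 9 had an adjusted p below 0.05 in edgeR's quasi-likelihood test, 3 higher and 6 lower in KO libraries. Over all tested genes, 54.6% passed that threshold, 27.1% higher and 27.5% lower. Krt14 rose most, with a mean of 957 CPM in KO libraries and 60.2 CPM in control libraries, and Krt18 fell, with 918 CPM in KO libraries and 1402 CPM in control libraries. Fibroblast markers summed to 39.8 to 45.5 CPM in KO libraries and 36.4 to 38.4 CPM in control libraries, almost all of it Pdgfra, with 7 of 9 under 1 CPM and Col3a1, Lum and Thy1 at 0. Leukocyte markers summed to 5.99 to 8.64 CPM in KO libraries and 13.9 to 15.9 CPM in control libraries, most of it Cd68, with Adgre1, Cd3e and Ly6g among those at 0. The part of the leukocyte markers in the results below was not tested.

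Of the 52 genes, 38 passed the filter on low counts and were tested, and 26 of these had a Benjamini-Hochberg adjusted p below 0.05 in edgeR's quasi-likelihood test, 14 higher and 12 lower in the FGFR2 KO libraries. Of all 12158 genes tested, 54.6% passed the same threshold, 27.1% higher and 27.5% lower, so the number of calls among the pathway genes is read against a background in which more genes changed than not. At least 2-fold changes were rarer. They were met by 6.75% of all tested genes (2.88% higher and 3.87% lower) and by 8 pathway genes, of which Tgfb2, Inhbb, Ltbp2, Fstl1 and Nog were higher and Bmp7, Tgfbr3 and Acvr2b were lower. Fstl1 and Nog passed the filter only through the KO libraries, where they were high enough. The median log2 fold change was 0.05 for the tested pathway genes and -0.01 for all tested genes, and the median size of the change without its sign was 0.39 for the pathway genes and 0.21 for all. When the test demanded a change beyond 1.5-fold, 11 of the 26 calls were kept: Tgfb2, Inhbb, Gdf11, Bmp7, Tgfbr3, Acvr2b, Smad3, Ltbp2, Ltbp3, Fstl1 and Nog. In bulk RNA, fewer cells expressing a gene and less RNA per cell cannot be told apart. Nothing in the labels shows whether replicates are separate cultures, and a p-value here sets the group difference against library-to-library spread that may be technical.

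**Figure D1:**
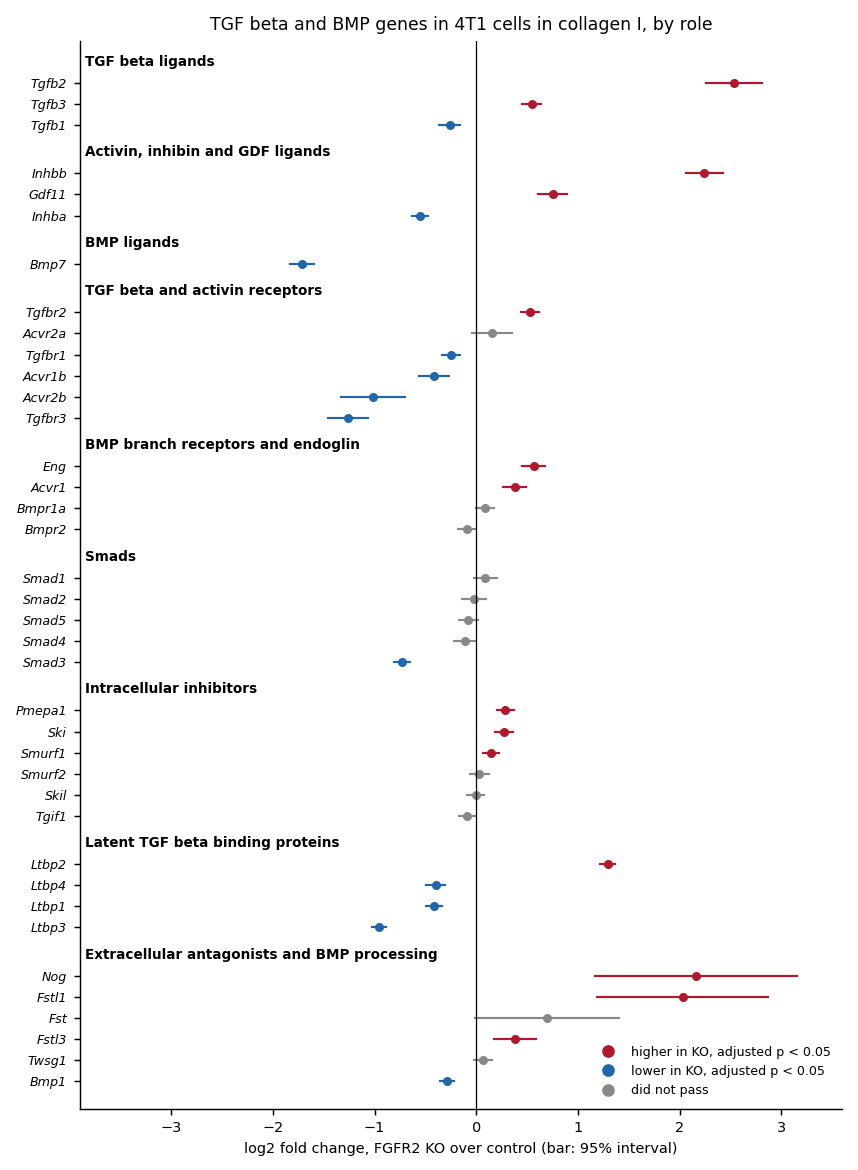
Log2 fold change of each tested pathway gene in FGFR2 KO over control libraries (x axis), grouped by role; points are edgeR estimates, bars are 95% intervals, and colour marks genes higher, lower or not past an adjusted p of 0.05. Tgfb2 (2.53) and Inhbb (2.24) lie far to the right and Bmp7 (-1.71) and Tgfbr3 (-1.26) far to the left, while most Smads and intracellular inhibitors lie near 0.

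Among the TGF beta ligands, Tgfb2 was the one with the greatest change. Tgfb2 is a secreted ligand that needs the co-receptor betaglycan for efficient binding to TGFBR2. It had 18.6, 15.9 and 17.0 CPM in FGFR2 KO libraries, against 2.78, 2.81 and 3.36 CPM in control libraries. Every KO library was well above every control library, and Tgfb2 rose 5.78-fold (log2 fold change 2.53, SE 0.14, edgeR quasi-likelihood adjusted p = 2.42e-18). The gene lies on the minus strand of chr1:186622792-186705989 (mm10). Tgfb3 had 106, 102 and 102 CPM in KO libraries, against 73.0, 70.3 and 69.4 CPM in control libraries. It too rose with no overlap, by a smaller step (edgeR log2 fold change 0.54, SE 0.05, adjusted p = 1.43e-12). Tgfb1, the form most studied in carcinoma, had 76.5, 82.8 and 77.4 CPM in KO libraries, against 99.2, 87.1 and 97.3 CPM in control libraries. It fell by 0.26 on the log2 scale (SE 0.05, edgeR adjusted p = 4.66e-05), and its highest KO library lay close below its lowest control library.

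The 3 ligands therefore changed in their proportions. Per length, as library-scaled reads per kilobase of exon (RPKM), they summed to 49.2 ± 0.578 in KO libraries and 40.2 ± 1.604 in control libraries (SD, n = 3 each). Tgfb2 made up 6.02% ± 0.445 of that sum in KO libraries and 1.28% ± 0.144 in control libraries. Tgfb1 made up 31.8% ± 1.34 in KO libraries and 46.6% ± 1.54 in control libraries, and Tgfb3 62.2% ± 0.901 in KO libraries and 52.1% ± 1.598 in control libraries. Which of Tgfb1 and Tgfb3 is the most abundant depends on the gene length used: with the longest annotated transcript in place of all exons, Tgfb1 made up 47.5% in KO libraries and 63.0% in control libraries, and Tgfb3 47.4% in KO libraries and 36.0% in control libraries. With the longest transcript the 3 ligands summed to 64.6 ± 0.939 RPKM in KO libraries and 58.3 ± 2.81 RPKM in control libraries, so the size of that difference also depends on the length. The lower share of Tgfb1 and the higher shares of Tgfb2 and Tgfb3 in KO libraries were present with both lengths.

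Activins are dimers of beta subunits, activin A of the product of Inhba and activin B of the product of Inhbb. Inhbb had 46.9, 38.9 and 45.7 CPM in FGFR2 KO libraries, against 9.32, 9.11 and 9.36 CPM in control libraries. The control libraries were almost level and lay far below each KO library. The gene rose 4.74-fold (edgeR log2 fold change 2.24, SE 0.09, adjusted p = 1.19e-22). Inhbb lies on the minus strand of chr1:119415465-119422248. Inhba moved the other way, with 129, 128 and 129 CPM in KO libraries, against 193, 191 and 183 CPM in control libraries. It fell by 0.55 on the log2 scale with no overlap (SE 0.04, edgeR adjusted p = 1.46e-14).

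The summed level of both subunits per length was 30.4 ± 1.12 RPKM in KO libraries and 31.7 ± 0.789 RPKM in control libraries (SD, n = 3 each), and the libraries of the groups overlapped. Inhbb made up 33.8% ± 2.12 of this sum in KO libraries and 6.86% ± 0.235 in control libraries. Inha, whose product pairs with a beta subunit to form inhibins, had 0 counts in all libraries. Gdf11, a ligand related to myostatin that signals through activin receptors, had 40.1, 39.5 and 40.0 CPM in KO libraries, against 23.8, 25.5 and 21.4 CPM in control libraries, and rose with no overlap (edgeR log2 fold change 0.75, SE 0.07, adjusted p = 2.54e-11). Gdf15 had 1 count in all, in KO replicate 3, and Gdf6 had none.

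Bmp7 was the only one of 8 BMP ligands with enough counts to be tested. Its product acts through type I BMP receptors on SMAD1 and SMAD5. It had 23.2, 26.8 and 26.3 CPM in FGFR2 KO libraries, against 84.1, 83.9 and 82.2 CPM in control libraries. The KO libraries lay at 0.305 of the control level, with no overlap (edgeR log2 fold change -1.71, SE 0.06, adjusted p = 3.55e-24). The gene lies on the minus strand of chr2:172868012-172940321. Bmp2, Bmp3, Bmp4, Bmp5 and Bmp8a had 0 counts in all 6 libraries. A count of 0 allows up to 3 counts over the 112734358 counts of all libraries, or 0.0266 CPM, for counting error only. Bmp6 had 0, 0 and 4 counts in KO libraries and 1, 0 and 0 in control libraries, and it shares 224 exon bases with Txndc5 on the opposite strand, which had 21807 counts in KO libraries and 10925 in control libraries. Bmp8b had 10, 0 and 2 counts in KO libraries and 2, 1 and 3 in control libraries. It shares up to 472 of 3880 exon bases with Ppie and Gm17244 on the opposite strand. Ppie had 2380 counts in KO libraries and 2100 in control libraries.

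**Figure D2:**
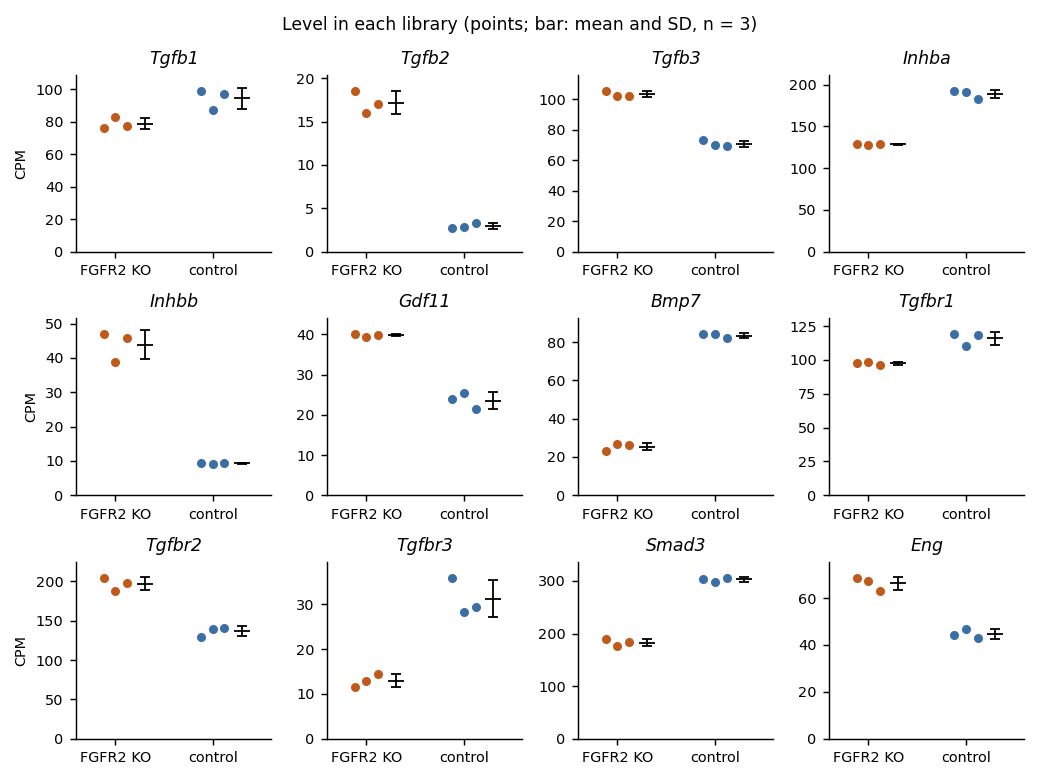
Level in CPM (y axis, from 0) of selected pathway genes in each FGFR2 KO library and each control library; points are libraries and bars are the mean and SD of 3. Only called genes whose groups do not overlap are shown, and genes whose groups overlapped, such as Acvr2a and Smad2, are left out. Tgfb2, for example, lies at 15.9 to 18.6 CPM in KO libraries and 2.78 to 3.36 CPM in control libraries.

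To show the DNA in front of the start sites of the genes that changed most, promoters were taken for pathway genes with an adjusted p below 0.05, at least a 2-fold change and an average of 5 CPM or more, which were 6 genes, 4 of them with an entry (Tgfb2, Inhbb, Ltbp2 and Acvr2b; Bmp7 and Tgfbr3 are named only). The sequences are RefSeq's, build GRCm38.p6, and give the 250 bases before the start, 5′ to 3′ on the gene's own strand; 38 of the 52 genes had an entry. The start is the one RefSeq gives and can differ from the end of the gene given above. Capitals mark CAGAC, a motif bound by SMAD3 and SMAD4, on either strand (GTCTG where it lies on the other). The windows are chr1:186705990-186706239 (minus strand) for Tgfb2, chr1:119422249-119422498 (minus strand) for Inhbb, chr12:84876492-84876741 (minus strand) for Ltbp2 and chr9:119401928-119402177 (plus strand) for Acvr2b.
Tgfb2: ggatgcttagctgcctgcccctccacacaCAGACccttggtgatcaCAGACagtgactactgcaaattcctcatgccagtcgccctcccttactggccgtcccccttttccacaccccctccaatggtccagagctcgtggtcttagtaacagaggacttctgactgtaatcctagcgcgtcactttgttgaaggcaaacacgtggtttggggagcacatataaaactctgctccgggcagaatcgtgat
Inhbb: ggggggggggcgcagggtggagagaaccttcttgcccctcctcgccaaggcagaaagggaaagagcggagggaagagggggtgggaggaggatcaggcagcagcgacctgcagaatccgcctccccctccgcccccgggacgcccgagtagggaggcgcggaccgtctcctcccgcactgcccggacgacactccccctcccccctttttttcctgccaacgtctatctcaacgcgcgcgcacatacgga
Ltbp2: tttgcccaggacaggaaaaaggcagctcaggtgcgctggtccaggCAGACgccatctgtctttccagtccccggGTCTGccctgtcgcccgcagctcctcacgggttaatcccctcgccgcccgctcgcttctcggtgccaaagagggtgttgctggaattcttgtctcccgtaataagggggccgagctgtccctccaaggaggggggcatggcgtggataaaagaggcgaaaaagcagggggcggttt
Acvr2b: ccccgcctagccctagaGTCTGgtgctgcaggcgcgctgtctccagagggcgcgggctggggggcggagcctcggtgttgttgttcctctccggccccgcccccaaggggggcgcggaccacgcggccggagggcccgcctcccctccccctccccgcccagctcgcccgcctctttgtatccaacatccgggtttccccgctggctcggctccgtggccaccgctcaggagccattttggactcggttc
The windows of Tgfb2 and Ltbp2 held 2 matches to CAGAC each, that of Acvr2b 1 and that of Inhbb 0. The match is common: 42.2% of all 32851 promoters in the table held it, as did 28 of the 51 promoters listed for pathway genes. GGCGCC, a motif of BMP-responsive Smads, was in 9.59% of all promoters and 10 of the 51, and TGANTCA, the AP-1 motif, in 6.75% of all promoters and 0 of the 51. None of the 4 windows held either. Both strands were searched, and a match describes letters and no more.

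All 4 LTBPs passed the test, 1 higher and 3 lower, against 54.6% of all tested genes called in either direction. Ltbp1, Ltbp2 and Ltbp3 were among the 7 genes with the highest mean level per length (RPKM) of the tested pathway genes. Ltbp2, whose product binds fibrillin microfibrils and differs from the other LTBPs in that it is not known to hold latent TGF beta, had 545, 526 and 558 CPM in FGFR2 KO libraries, against 218, 222 and 226 CPM in control libraries. It rose 2.45-fold with no overlap (edgeR log2 fold change 1.29, SE 0.04, adjusted p = 2.35e-27), which is the smallest adjusted p of the 38 tested pathway genes. Ltbp2 lies on the minus strand of chr12:84783212-84876532. Ltbp3, which binds latent TGF beta during secretion, had 567, 548 and 561 CPM in KO libraries, against 1088, 1060 and 1107 CPM in control libraries. It stood at 0.515 of the control level with no overlap (edgeR log2 fold change -0.96, SE 0.03, adjusted p = 1.41e-24), and lies on the plus strand of chr19:5740904-5758532.

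Ltbp1, which tethers latent TGF beta to fibronectin and fibrillin, had 282, 262 and 264 CPM in KO libraries, against 356, 351 and 372 CPM in control libraries. It fell by 0.42 on the log2 scale (SE 0.04, edgeR adjusted p = 5.32e-12). Ltbp4, a binding protein of elastic fibres, fell by 0.40 (SE 0.05, edgeR adjusted p = 2.28e-09), with 103, 112 and 98.5 CPM in KO libraries, against 135, 136 and 142 CPM in control libraries. Neither gene's groups overlapped. Together the 4 summed to 169 ± 2.63 RPKM in KO libraries and 202 ± 4.29 RPKM in control libraries (SD, n = 3 each). Ltbp3 made up 36.4% ± 0.078 of the sum in KO libraries and 59.3% ± 0.393 in control libraries, while Ltbp2 made up 39.2% ± 0.811 in KO libraries and 13.4% ± 0.232 in control libraries. With the longest transcript as the length, Ltbp2 made up 33.8% in KO libraries and 10.9% in control libraries, and Ltbp3 41.1% in KO libraries and 62.8% in control libraries, so that which of them leads in KO libraries depends on the length.

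Some of these counts could include reads of a neighbour, since the strand setting of the counting is not given in the sources used here. Ltbp2 shares 764 of 8184 exon bases with D030025P21Rik on the opposite strand, which had 517 counts in KO libraries and 441 in control libraries, against 31787 counts of Ltbp2 in KO libraries and 11999 in control libraries. Tgfb3 shares 420 of 3383 with gene models that the table does not list.

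**Figure D3:**
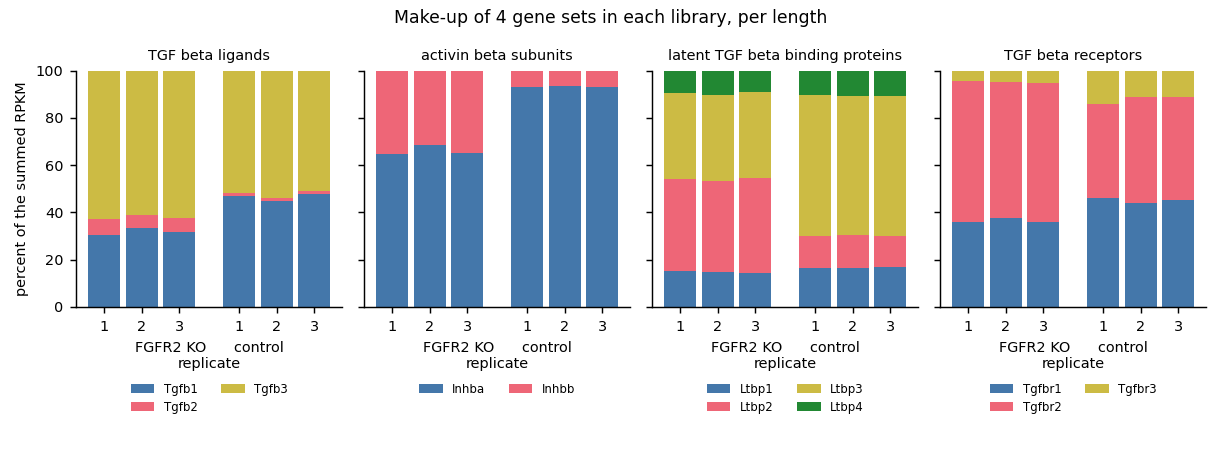
Percent of the summed RPKM (y axis) made up by each gene of 4 sets in each library, with FGFR2 KO libraries left of control libraries; stacked colours are genes. Ltbp2 makes up 39.2% of the LTBPs in KO libraries and 13.4% in control libraries, and Inhbb 33.8% of the activin beta subunits in KO libraries and 6.86% in control libraries.

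Of 6 tested receptors of the TGF beta and activin branch, 4 fell, 1 rose and 1 did not pass. Over all tested genes, 27.1% were higher and 27.5% lower. Tgfbr2, the type II receptor that binds the ligand, was the one that rose, with 204, 188 and 198 CPM in FGFR2 KO libraries, against 129, 139 and 141 CPM in control libraries (edgeR log2 fold change 0.53, SE 0.04, adjusted p = 3.46e-13). Its type I partner Tgfbr1 had 97.8, 98.4 and 96.4 CPM in KO libraries, against 119, 110 and 118 CPM in control libraries, and fell by 0.25 on the log2 scale (SE 0.04, edgeR adjusted p = 1.28e-05). For both genes the groups did not overlap. Tgfbr3 encodes betaglycan, the co-receptor that presents TGF beta 2 and also binds inhibin. It had 11.5, 12.9 and 14.6 CPM in KO libraries, against 36.0, 28.4 and 29.4 CPM in control libraries, and stood at 0.416 of the control level with no overlap (edgeR log2 fold change -1.26, SE 0.10, adjusted p = 5.68e-14). Tgfbr3 lies on the minus strand of chr5:107106570-107289629.

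Per length, the 3 TGF beta receptors summed to 40.9 ± 0.869 RPKM in KO libraries and 39.2 ± 0.811 RPKM in control libraries (SD, n = 3 each). Tgfbr2 made up 58.7% ± 1.23 of that sum in KO libraries and 42.6% ± 2.31 in control libraries, and Tgfbr3 4.85% ± 0.605 in KO libraries and 12.2% ± 1.495 in control libraries. Of the activin receptors, Acvr1b, the type I receptor, had 24.0, 25.2 and 26.7 CPM in KO libraries, against 34.3, 32.6 and 34.7 CPM in control libraries, and fell by 0.42 on the log2 scale (SE 0.07, edgeR adjusted p = 5.83e-06). Acvr2b, a type II receptor for activins and some BMPs, was low in both groups, with 3.21, 4.55 and 4.59 CPM in KO libraries, against 8.12, 8.57 and 8.39 CPM in control libraries. It stood at 0.494 of the control level with no overlap (edgeR log2 fold change -1.02, SE 0.16, adjusted p = 8.54e-07), and KO replicate 1 was the lowest library.

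The other type II activin receptor, Acvr2a, had 21.3, 18.6 and 19.5 CPM in KO libraries, against 14.6, 19.2 and 19.6 CPM in control libraries. The groups overlapped and the difference did not pass (log2 fold change 0.16, 95% interval -0.04 to 0.36, edgeR adjusted p = 0.182). Acvr2a shares 446 of 5686 exon bases with Orc4 on the opposite strand, which had 3017 counts in KO libraries and 2516 in control libraries, against 1156 counts of Acvr2a in KO libraries and 960 in control libraries.

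Of 4 tested receptors of the BMP branch, endoglin included, 2 rose, 0 fell and 2 did not pass, against 54.6% of all tested genes called. Acvr1, a type I BMP receptor, had 62.8, 64.5 and 59.3 CPM in FGFR2 KO libraries, against 48.3, 45.9 and 49.4 CPM in control libraries, and rose with no overlap (edgeR log2 fold change 0.38, SE 0.06, adjusted p = 4.28e-07). Bmpr1a, another type I BMP receptor, had 135, 133 and 131 CPM in KO libraries, against 125, 130 and 120 CPM in control libraries. Although each KO library was above each control library, the difference did not pass (log2 fold change 0.08, 95% interval -0.0013 to 0.17, edgeR adjusted p = 0.0898). Bmpr2, the type II BMP receptor, had 104, 102 and 108 CPM in KO libraries, against 115, 108 and 112 CPM in control libraries (log2 fold change -0.09, edgeR adjusted p = 0.0733). Its groups came within 1 CPM of each other.

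Eng encodes endoglin, a co-receptor for TGF beta and for BMP9 that is best known in endothelial cells. It had 68.7, 67.1 and 62.9 CPM in KO libraries, against 44.0, 46.9 and 43.1 CPM in control libraries, and rose with no overlap (edgeR log2 fold change 0.56, SE 0.06, adjusted p = 8.26e-11). All 8 endothelial markers were under 1 CPM in every library, their sum was 0.593 to 0.963 CPM in KO libraries and 0.542 to 0.981 CPM in control libraries, and Kdr, Tek, Emcn and Cldn5 had 0 counts. Acvrl1, the type I receptor that pairs with endoglin in endothelium, had 1, 1 and 4 counts in KO libraries and 3, 3 and 3 in control libraries. Bmpr1b had 2, 0 and 0 counts in KO libraries and 0, 7 and 10 in control libraries. Neither had enough counts to be tested.

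Of the 5 Smads, Smad3 was the only one that passed, against 54.6% of all tested genes called in either direction. Smad3 carries TGF beta and activin signals to DNA, and it had 189, 176 and 183 CPM in FGFR2 KO libraries, against 304, 298 and 306 CPM in control libraries. It stood at 0.603 of the control level, and the highest KO library lay far below the lowest control library (edgeR log2 fold change -0.73, SE 0.04, adjusted p = 6.54e-19). The gene is on the minus strand of chr9:63646767-63757994. Smad2, which transmits the same signals, averaged 48.0 ± 2.69 CPM in KO libraries and 48.8 ± 2.45 CPM in control libraries (SD, n = 3 each), a log2 fold change of -0.02 with a 95% interval of -0.15 to 0.10. Smad1 and Smad5 of the BMP branch had log2 fold changes of 0.09 (95% interval -0.02 to 0.20) and -0.08 (-0.17 to 0.01).

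Smad4, the shared partner, averaged 74.0 ± 3.80 CPM in KO libraries and 80.1 ± 3.38 CPM in control libraries (SD, n = 3 each; log2 fold change -0.11, edgeR adjusted p = 0.0561), and it passed as lower without KO replicate 1 (log2 fold change -0.15). Per length, the receptor-regulated Smads 1, 2, 3 and 5 summed to 61.7 ± 1.09 RPKM in KO libraries and 83.8 ± 0.886 RPKM in control libraries (SD, n = 3 each). Smad3 was the most abundant of them in both groups, with 53.4% ± 0.923 of the sum in KO libraries and 65.3% ± 0.381 in control libraries.

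Among 6 intracellular inhibitors, 3 rose, 0 fell and 3 did not pass, a share of 50% called, near the 54.6% of all tested genes. Each rise was small. Pmepa1, a TGF beta target whose membrane-bound product limits Smad activation, had 207, 220 and 218 CPM in KO libraries, against 180, 173 and 176 CPM in control libraries (edgeR log2 fold change 0.29, SE 0.04, adjusted p = 9.63e-08). Ski, a corepressor that binds Smads, had 105, 113 and 114 CPM in KO libraries, against 90.0, 93.0 and 91.6 CPM in control libraries (edgeR log2 fold change 0.27, SE 0.05, adjusted p = 3.96e-06). Smurf1, a ubiquitin ligase for BMP-branch Smads and receptors, had 192, 195 and 194 CPM in KO libraries, against 181, 172 and 171 CPM in control libraries (edgeR log2 fold change 0.15, SE 0.04, adjusted p = 0.00154). None of the 3 overlapped between groups.

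Their close relatives did not follow. Skil, the corepressor related to Ski, averaged 181 ± 5.92 CPM in KO libraries and 182 ± 2.91 CPM in control libraries, and Smurf2, the ligase related to Smurf1, 131 ± 5.27 CPM in KO libraries and 128 ± 6.07 CPM in control libraries (SD, n = 3 each). Their 95% intervals on the log2 scale were -0.09 to 0.07 for Skil and -0.06 to 0.12 for Smurf2. Tgif1, a homeodomain corepressor, had a log2 fold change of -0.09 (edgeR adjusted p = 0.0685), and its groups overlapped. It passed as lower without KO replicate 3 (log2 fold change -0.12). Whether the changes of related genes differ from each other was not tested.

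Of the extracellular antagonists, Fst, Fstl1 and Nog had few counts in these cells. Nog encodes noggin, which sequesters BMPs, and it had 12, 33 and 24 counts in FGFR2 KO libraries, against 7, 4 and 3 counts in control libraries. It rose 4.46-fold (edgeR log2 fold change 2.16, SE 0.49, adjusted p = 0.000322), to a level of 1.17 ± 0.522 CPM in KO libraries, against 0.257 ± 0.108 CPM in control libraries (SD, n = 3 each). Fstl1, a secreted glycoprotein related to follistatin, had 35, 28 and 36 counts in KO libraries, against 7, 3 and 12 counts in control libraries (edgeR log2 fold change 2.03, SE 0.41, adjusted p = 8.04e-05). Without control replicate 3 the log2 fold change of Fstl1 was 2.68, and without control replicate 2 it was 1.57. Nog and Fstl1 passed the filter on low counts only through the KO libraries and could hardly count as lower. Their groups did not overlap, but the few counts leave wide 95% intervals of 1.16 to 3.15 for Nog and 1.19 to 2.87 for Fstl1 on the log2 scale.

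Fst encodes follistatin, which binds activins, and it had 27, 22 and 30 counts in KO libraries, against 19, 13 and 13 counts in control libraries (log2 fold change 0.69, 95% interval -0.01 to 1.40, edgeR adjusted p = 0.0918). Fstl3, a secreted activin binder related to follistatin, had 17.4, 15.7 and 17.5 CPM in KO libraries, against 14.2, 13.4 and 11.2 CPM in control libraries. It rose with no overlap (edgeR log2 fold change 0.38, SE 0.10, adjusted p = 0.00194). Its exons share 1157 of 2445 bases with Prss57 on the opposite strand, which had 1 count in KO libraries and 1 in control libraries. Chrd, encoding the BMP binder chordin, had 7, 13 and 2 counts in KO libraries and 4, 7 and 7 in control libraries, and Grem1, encoding the BMP antagonist gremlin, had 1 count in all.

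Twsg1, whose product binds BMPs together with chordin, averaged 160 ± 3.79 CPM in KO libraries and 153 ± 6.76 CPM in control libraries (SD, n = 3 each), and the groups overlapped (log2 fold change 0.07, edgeR adjusted p = 0.182). Bmp1 is no BMP ligand but a metalloprotease that trims procollagens and cleaves chordin. It had 396, 416 and 403 CPM in KO libraries, against 490, 485 and 506 CPM in control libraries, and fell by 0.29 on the log2 scale with no overlap (SE 0.03, edgeR adjusted p = 5.93e-09).

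Over all roles, 30 of the 38 tested pathway genes did not overlap between the groups, 17 higher and 13 lower in KO libraries, against 59.5% of all tested genes. Among the 17 are Fstl1 and Nog, which passed the filter only through the KO libraries and could hardly count as lower. Replicates lay close together: over the 35 pathway genes that averaged 5 CPM or more, the coefficient of variation between libraries was 0.547% to 19.1% in the KO group (median 4.04%) and 1.29% to 15.8% in the control group (median 3.16%). Ordered by mean level per length over all libraries, Ltbp3 came first, with 61.6 RPKM in KO libraries and 120 RPKM in control libraries. It was followed by Bmp1, with 45.6 RPKM in KO libraries and 55.7 RPKM in control libraries, Ltbp2, with 66.3 RPKM in KO libraries and 27.1 RPKM in control libraries, and Smad3, with 33.0 RPKM in KO libraries and 54.7 RPKM in control libraries. The order differed between the groups and with the gene length: in KO libraries Ltbp2 was above Ltbp3, and Pmepa1, with 43.8 RPKM, was above Smad3. With the longest transcript as the length, Tgif1 came before Smad3. The lowest of the tested genes were Nog, Fst and Fstl1, each under 1 RPKM in both groups.

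**Figure D4:**
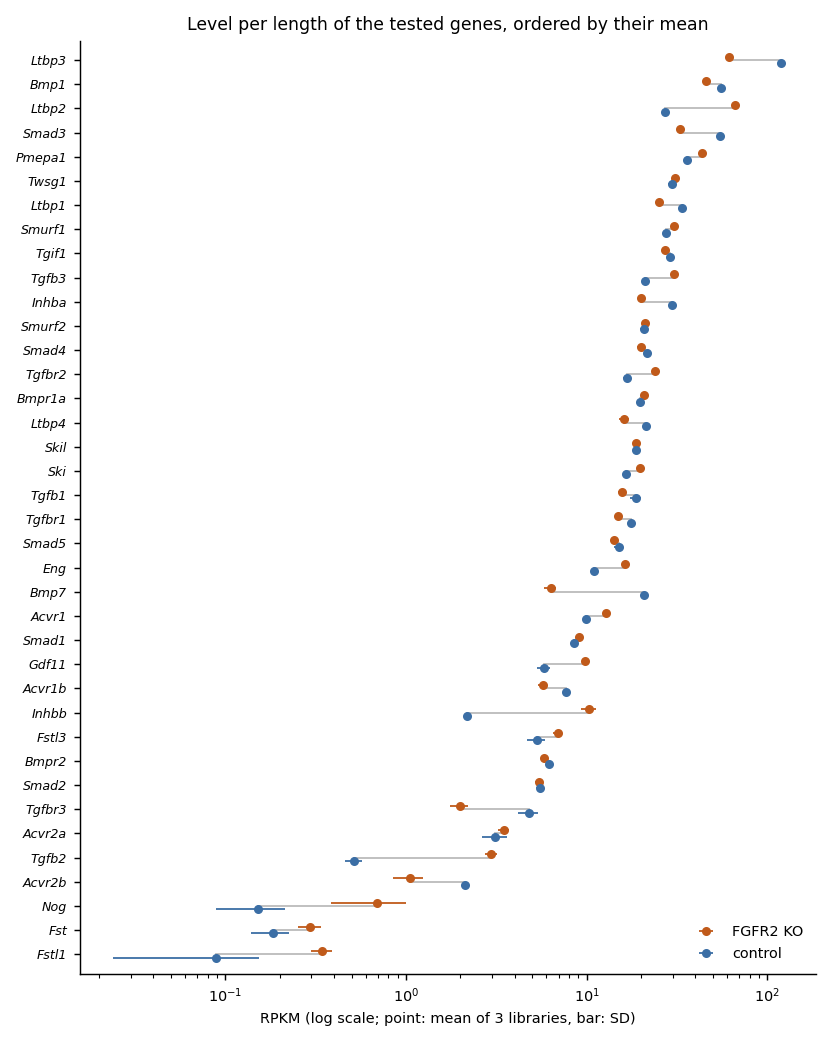
Level per length in RPKM (x axis, log scale) of each tested pathway gene, ordered by its mean over all libraries; points are the mean of 3 libraries of the FGFR2 KO or the control group and bars are the SD. The points of Ltbp2 (66.3 RPKM in KO libraries, 27.1 RPKM in control libraries) and of Inhbb, Tgfb2 and Bmp7 lie far apart, while those of Skil, Smurf2 and Smad2 nearly coincide.

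The pathway's genes outside these 52 were followed in lists chosen by role, with earlier results of these data known. None of 16 further ligands, among them Nodal and the Lefty genes, passed the filter on low counts. Of 11 tested genes for activation of latent TGF beta, 4 rose and 5 fell, against 54.6% of all tested genes called in either direction, and 1 of the 5, Lrrc32, passed the filter only through the control libraries. Thbs1, encoding thrombospondin 1, which can release TGF beta from its latent form, had 1275, 1133 and 1190 CPM in KO libraries, against 511, 507 and 531 CPM in control libraries (log2 fold change 1.22, edgeR adjusted p = 2.84e-26). Mmp14, a membrane metalloproteinase, averaged 563 ± 20.2 CPM in KO libraries and 329 ± 8.98 CPM in control libraries, and Mmp9, a secreted gelatinase, 137 ± 4.83 CPM in KO libraries and 365 ± 4.69 CPM in control libraries (SD, n = 3 each). Mmp14 rose by 0.78 and Mmp9 fell by 1.42 on the log2 scale (edgeR adjusted p = 1.77e-20 and 1.08e-27).

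Of 20 intracellular regulators, 8 rose and 6 fell, against 54.6% of all tested genes called in either direction, and 1 of the 8, Smad9, passed the filter only through the KO libraries. Usp11, a deubiquitinase that stabilises TGFBR1, fell by 1.35 on the log2 scale, and Dab2, an adaptor of TGF beta receptor traffic, fell by 0.69, while Ppp1r15a, a phosphatase subunit that acts on TGFBR1, rose by 0.71 (edgeR adjusted p = 7.41e-15, 4.34e-12 and 9.66e-14). Of 6 tested further antagonists and binders, Crim1, a transmembrane BMP binder, rose by 1.12 and Nbl1, a secreted BMP antagonist, by 0.56, and Pcolce, an enhancer of the Bmp1 protease, fell by 0.33 (edgeR adjusted p = 2.31e-22, 3.89e-10 and 2.02e-08). The co-receptors for BMPs Rgma and Rgmb had log2 fold changes of 0.38 and -0.45 (edgeR adjusted p = 0.00502 and 1.52e-07).

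Genes known as targets of the Smads were counted beside their pathways, in lists that were also chosen with earlier results of these data known. Of 14 tested targets of TGF beta and activin Smads, 10 rose and 2 fell, with a median log2 fold change of 0.60, against 27.1% higher, 27.5% lower and a median of -0.01 over all tested genes. Col1a1, one of the 10, passed the filter on low counts only through the KO libraries, and its call was lost without KO replicate 1. Of the other 13 targets, 9 rose and 2 fell, with a median log2 fold change of 0.38. Thbs1 stands in this list too, and Cyr61, a matricellular protein gene, rose by 1.14 (edgeR adjusted p = 1.98e-24). Il11 and Junb were the 2 that fell, by 1.35 and 0.14 on the log2 scale, and the call of Junb was lost without control replicate 1. These genes are also controlled by other pathways, and the part of TGF beta signalling in their change was not tested.

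Of 12 tested BMP Smad targets, 11 rose and 1 fell, with a median log2 fold change of 1.36, but Smad9, Hey1, Dlx2, Atoh8 and Gata2 passed the filter only through the KO libraries and could hardly count as lower. Of the other 7, 6 rose and 1 fell, with a median of 0.81, against 27.1% higher and 27.5% lower over all tested genes. Id1, Id2 and Id3, inhibitors of basic helix-loop-helix factors, averaged 181 ± 9.87, 237 ± 8.95 and 288 ± 12.7 CPM in KO libraries, against 26.9 ± 0.592, 92.1 ± 3.73 and 113 ± 4.86 CPM in control libraries (SD, n = 3 each). Id4 fell by 0.54 on the log2 scale. The call of Gata2 (edgeR adjusted p = 0.0378) was lost without KO replicate 1 or 3 or control replicate 1 or 2. Bmp7, the only BMP ligand that could be tested, was lower in the libraries in which these targets were higher, and a link between them was not tested. The part of BMP signalling in the change of these targets was not tested either.

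**Figure D5:**
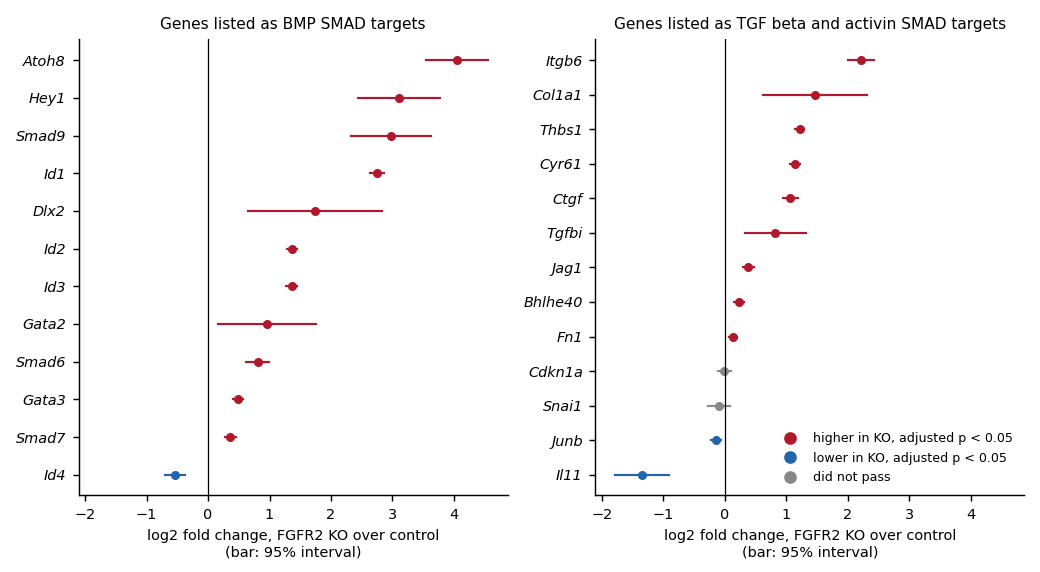
Log2 fold change (x axis) in FGFR2 KO over control libraries of 12 tested BMP Smad targets (left) and of TGF beta and activin Smad targets (right). The right panel shows 13 of 14 tested targets, with Col1a1 and without the gene that is not reported here. Points are edgeR estimates and bars 95% intervals. Most points lie right of 0, with Id1 at 2.75 and Cyr61 at 1.14, while Il11 (-1.35) and Id4 (-0.54) lie left of it. Of the genes shown, Smad9, Hey1, Dlx2, Atoh8, Gata2 and Col1a1 passed the filter only through the KO libraries and could hardly count as lower.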

How the data were processed

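Polyadenylated RNA of 4T1 cells was sequenced from stranded libraries, per the labels' protocols. The authors deposited whole-number read counts per gene, not normalized, in 1 column per library. The submitters' processing notes list FastQC 0.11.9, STAR 2.7.9a, featureCounts and R 4.1.1, and name the builds hg38 and mm10 with no role. The annotation counted, the strand setting and the treatment of reads with several alignments were not given in the sources used here. Columns were matched to libraries by name, and 0 were left unassigned.

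From these counts, genes were filtered with filterByExpr (minimum count 10, minimum total 15), scaled with TMM, and compared by edgeR's quasi-likelihood F-test (edgeR 4.0.16, R 4.3.3), FGFR2 KO over control, with the group as the only term. P-values were adjusted by the Benjamini-Hochberg method over all 12158 genes tested, with a threshold of 0.05 and no minimum fold change. Fold changes use a prior count of 0.125. The biological coefficient of variation was 4%. Chi-square per degree of freedom, at library totals without TMM, was 3.75 to 4.69 between KO replicates and 2.28 to 2.64 between control replicates. That is more than counting noise gives, and no p-value was computed for it. CPM use the TMM-scaled totals. RPKM, computed here, use the summed exon length of GENCODE M21 (mm10), which held 98.2% of the table's symbols, and the longest transcript as an alternative. A count of 0 was read as up to 3 counts. Promoters and their motifs came from RefSeq (GRCm38.p6).

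The pathway genes and the lists of further genes, markers and motifs were chosen with earlier results of these data known. Every one of the 52 genes could be named, as could Fgfr2 and the 3 genes of each further list with the smallest adjusted p. Il11, Junb, Id4, Krt14, Krt18 and the further genes that passed the filter only through 1 group lie outside that rule and were named after their values were seen. One gene that the rule takes is not reported here. Alternatives were DESeq2 1.42.0, limma-voom (limma 3.58.1), other scalings and filters, a minimum fold change of 1.5, the replicate number as a block and each library left out. The test was also checked on simulated counts.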

Additional observations from a re-analysis of the deposited data

How the results depend on the processing

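All 26 called pathway genes kept their direction and their call under DESeq2, limma-voom, both other scalings, no filter, the replicate block and each left-out library, except that Fstl1 and Nog were not tested with a mean of at least 5 CPM. With a minimum fold change of 1.5, calls were 6 higher and 5 lower among the 38 tested pathway genes. Over all 12158 tested genes they were 402 higher and 505 lower. Among the 60 tested further pathway genes and targets they were 16 higher and 4 lower, but 8 of these 60 passed the filter through 1 group only. The 15 pathway genes whose call was lost in that test have smaller fold changes, as the test's construction requires. Bmpr2, Smad4 and Tgif1 passed as lower with upper quartile scaling and with a mean of at least 5 CPM, which gave 15 lower pathway genes each. Without one library each, the log2 fold changes of 3 genes that were never called lay on both sides of 0: -0.0628 to 0.0234 for Smad2, -0.00268 to 0.0676 for Smurf2 and -0.0328 to 0.0121 for Skil.

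Deviations of same-numbered KO and control libraries had correlations of -0.0642 to -0.00317, so no shared deviation was seen in the counts. Whether same-numbered libraries were cultured or prepared together is not given in the labels and cannot be told from these correlations. With the replicate number as a block, 14 pathway genes were higher and 12 lower, as without it, and 3206 of all genes were higher and 3237 lower. Without a filter, Bmpr1b (2 counts in KO libraries, 17 in control libraries) also passed as lower. None of the other untested genes with a count passed.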
